A study of Homo sapiens with 12 samples.

Results

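The genes of MHC class II antigen presentation were followed in MOLM-13 cells, a human acute myeloid leukemia line with an MLL-AF9 fusion, that were left untreated or given decitabine (DAC), all-trans retinoic acid (ATRA) or both. The members were chosen by symbol: CIITA, RFX5, CD74, HLA-DRA, HLA-DRB1, HLA-DPA1, HLA-DPB1, HLA-DQA1, HLA-DMA and HLA-DMB, 10 of the 46639 gene symbols in the table. The 12 libraries of total RNA, depleted of ribosomal RNA, fell into 4 groups of 3: untreated, 100 nM DAC, 1 µM ATRA, and 100 nM DAC with 1 µM ATRA. The labels give RPMI with fetal calf serum and GM-CSF for all groups, whereas the study's methods name RPMI and fetal calf serum but no GM-CSF. The titles give 72 h for the treated libraries and 96 h for the untreated ones, whereas the design text gives 1 harvest time of 72 h, so time and treatment cannot be told apart if the titles are right. According to the study's methods DAC was renewed daily and ATRA was added with the last DAC dose, whereas the labels describe ATRA over the whole course. DAC was dissolved in PBS and ATRA in DMSO, and no vehicle library was analysed here. The 3 libraries of a group came from 1 cell line as technical triplicates, so the p-values measure the spread between these libraries.

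MHC class II molecules are heterodimers of an alpha and a beta chain that show peptides from the endocytic route to CD4 T cells, and in myeloid cells they belong to the monocyte and dendritic cell program. CIITA, a coactivator that does not itself bind DNA, is the master regulator of the family. It docks on a complex assembled on the class II promoters, in which RFX5, with RFXANK and RFXAP, binds the X box, CREB1 binds beside it, and the NF-Y subunits bind the Y box, a CCAAT element. CD74, the invariant chain, escorts new class II dimers to endosomes and blocks their groove, cathepsins trim it there, and HLA-DM (the HLA-DMA and HLA-DMB chains) exchanges the remaining fragment for peptide. DAC is incorporated into DNA and depletes DNA methyltransferases, and ATRA is a ligand of the retinoic acid receptors.

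Promoters of CD74 and of class II chains are shown because this regulator complex is known to act on them. The stretches below run 5′ to 3′ on the gene's strand, 85 bases each, from 70 bases before the CCAAT letters that lie nearest the start site. They were taken from RefSeq promoters on GRCh38.p14. Capitals mark CCAAT or its reverse complement ATTGG, and CTGATGAT, the X box letters of HLA-DRB1, which were chosen with these sequences in view.
CD74: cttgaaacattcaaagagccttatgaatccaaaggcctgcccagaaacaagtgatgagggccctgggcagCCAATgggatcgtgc
HLA-DRB1: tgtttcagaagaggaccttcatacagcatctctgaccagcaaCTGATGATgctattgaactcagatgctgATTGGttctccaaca
HLA-DRB5: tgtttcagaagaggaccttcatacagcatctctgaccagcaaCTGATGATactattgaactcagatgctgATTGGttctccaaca
HLA-DPB1: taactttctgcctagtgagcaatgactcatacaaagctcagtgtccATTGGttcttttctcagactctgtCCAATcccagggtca
HLA-DQA1: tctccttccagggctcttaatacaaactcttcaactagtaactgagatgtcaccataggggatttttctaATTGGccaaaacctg
HLA-DMA: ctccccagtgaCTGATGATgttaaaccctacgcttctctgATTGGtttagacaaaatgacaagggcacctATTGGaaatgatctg
HLA-DMB: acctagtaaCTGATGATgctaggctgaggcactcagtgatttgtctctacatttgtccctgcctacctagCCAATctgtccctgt
These stretches lie at chr5:150412949-150413033 for CD74 on the minus strand, chr6:32589880-32589964 for HLA-DRB1 on the minus strand, chr6:32530363-32530447 for HLA-DRB5 on the minus strand, chr6:33075845-33075929 for HLA-DPB1 on the plus strand, chr6:32637268-32637352 for HLA-DQA1 on the plus strand, chr6:32953132-32953216 for HLA-DMA on the minus strand, and chr6:32941036-32941120 for HLA-DMB on the minus strand. On both strands, CCAAT was found in 34.6% of the 35116 promoters of 300 bases in that set, CTGATGAT in 0.681%, and the retinoid receptor half-site letters AGGTCA in 13.8%. CTGATGAT stood in HLA-DRB1, HLA-DRB5, HLA-DMA and HLA-DMB upstream of a marked CCAAT element, and AGGTCA stood in none of the promoters listed for the members. HLA-DRB1 and HLA-DRB5 carried the same X box letters and nearly the same surrounding bases. Of the promoters that are not shown, the 2 listed for HLA-DPA1 held 0 CCAAT and 0 CTGATGAT matches, and of the 3 listed for RFX5 1 held CCAAT and none CTGATGAT. The promoters of CIITA, HLA-DRA and HLA-DRB3 are not shown either.

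Expression was read as the authors' normalized count, the number of reads assigned to a gene's transcript rows divided by the library's size factor and summed here per symbol. Depth ranged from 8951104 to 11944630 assigned reads in the untreated libraries, 4671214 to 6954604 in DAC, 8363702 to 10685348 in ATRA and 5607158 to 7162775 in DAC + ATRA, so that values in the DAC-treated groups rest on fewer reads. All 9 listed myeloid markers, among them CD33, MPO, FLT3 and LYZ, reached 10 normalized counts in some library, although CD14 stayed between 0 and 14.0. The myeloid markers moved with the treatments. LYZ, which makes up most of their sum outside the ATRA group, changed by -2.65 log2 units with ATRA (limma adjusted p of 6.45e-10) and 1.88 with DAC (limma adjusted p of 7.67e-07). In the ATRA group FLT3 had the higher mean, 8243 against 6819 for LYZ. MPO changed by 3.83 with DAC (limma adjusted p of 4.38e-11) and by -0.95 with ATRA (limma adjusted p of 0.000287). ITGAM changed by 2.52 with ATRA (limma adjusted p of 3.42e-06). FLT3 and HOXA9 were called lower with each drug alone, and MEIS1 higher with ATRA. The 9 myeloid markers summed to 52521 to 64616 in untreated, 168468 to 212874 in DAC, 16375 to 22301 in ATRA and 59624 to 62796 in DAC + ATRA libraries. Of the other lineages, MS4A1 and PAX5 (B cell), ALAS2 (erythroid), and COL1A2 and DCN (fibroblast) were listed at 0 in all 12 libraries. The summed B cell markers were 2.51 to 5.68 in untreated, 8.71 to 26.7 in DAC, 13.4 to 21.6 in ATRA and 26.6 to 39.8 in DAC + ATRA libraries, nearly all of it from CD79A. The fibroblast list came from COL1A1 alone, at 4.87 to 10.7 in untreated, 17.8 to 23.9 in DAC, 64.5 to 86.3 in ATRA and 39.2 to 58.2 in DAC + ATRA libraries. The T cell markers summed to 11.9 to 25.2 in untreated, 20.4 to 40.8 in DAC, 4.18 to 13.4 in ATRA and 22.5 to 27.996 in DAC + ATRA libraries. Whether these markers have any part in the changes below was not tested.

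The regulators rose with ATRA. CIITA went up 12.3-fold and RFX5 2.06-fold, CD74 rose 4.62-fold, and HLA-DRB1, the DR beta chain, rose 12.7-fold, whereas with DAC alone no tested member passed, where 4.29% of all tested genes were higher and 3.67% lower. Between ATRA and DAC + ATRA none of the tested members differed at the threshold. The DP, DQ and DM chains had few reads or none. A gene was tested if it was protein-coding and reached 10 normalized counts in at least 3 libraries (10642 genes), by limma on log2(normalized count + 1), and was called at a Benjamini-Hochberg adjusted p under 0.01. Fold changes are on this scale, which understates the change of low genes. Of the 10 members 5 passed the filter. HLA-DRA and HLA-DRB1 passed it only through ATRA-treated libraries, so their passing already required a difference.

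Read against all tested genes, ATRA raised 4 of the 5 tested members where it raised 12.1% of all genes and lowered 14% of them. HLA-DRB1, among these 4, and HLA-DRA passed the filter only through ATRA-treated libraries. Their place in these counts and in the medians below is therefore no test of a rise with ATRA. CIITA, RFX5 and CD74 passed the filter on the libraries without ATRA as well. DAC + ATRA against untreated also gave 4 of 5 higher, with 14.5% of all genes higher and 14.4% lower. DAC + ATRA against DAC gave the same genes, CIITA, RFX5, CD74 and HLA-DRB1, where 9.04% of all genes were higher and 9.74% lower. DAC raised 0 of 5 and lowered 0, with 4.29% of all genes higher and 3.67% lower. The limma p unadjusted was under 0.05 for 3 of the 5, CIITA, RFX5 and CD74. DESeq2 called 1 member, beside 1205 of all 10642 tested genes. With edgeR 0 members were called, beside 928 genes with DESeq2 size factors and 949 with TMM factors. DAC + ATRA against ATRA gave 0 of 5, with 6.47% of all genes higher and 5.46% lower, and the interaction gave 0 of 5, with 0.724% of all genes higher and 0.874% lower. In both, DESeq2 and edgeR also called 0 members, and 1 member had an unadjusted limma p under 0.05, RFX5 in the former and CIITA in the latter. The median log2 change of the tested members was 2.21 with ATRA, 2.44 with DAC + ATRA and 0.41 with DAC, beside medians of -0.04, -0.0039 and -0.0041 over all tested genes. The ATRA and DAC + ATRA changes share the untreated libraries. Fewer cells expressing a gene and less RNA per cell cannot be told apart in these bulk libraries.

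**Figure D1:**
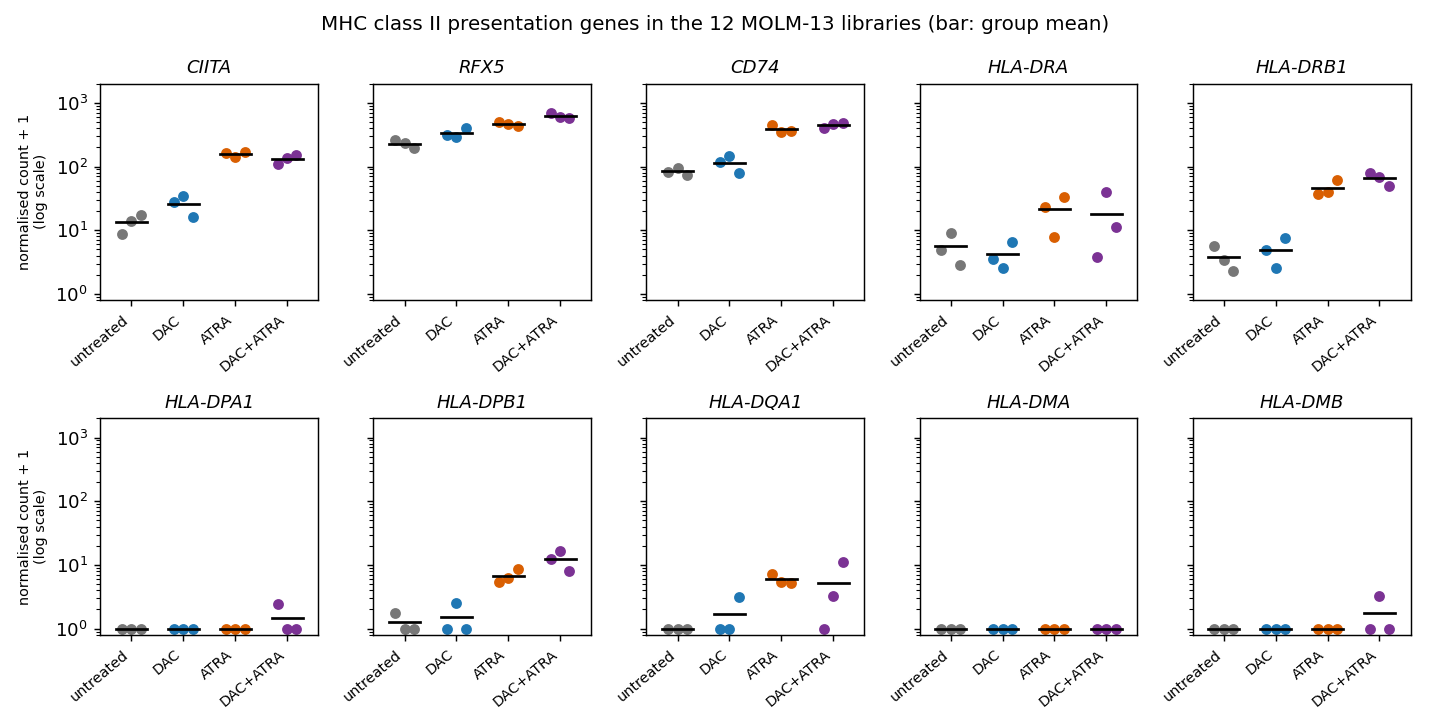
Normalized counts plus 1 (log axis) of the 10 members in each of the 12 libraries, with 1 point per library and a bar at the group mean. CIITA, RFX5, CD74, HLA-DRB1 and HLA-DPB1 sit higher in every ATRA-treated library than in every library without ATRA. The share of all tested genes that separate in this way was not computed. HLA-DMA stays at 0, and HLA-DPA1 and HLA-DMB show reads in 1 library each.

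CIITA lies at chr16:10866222-10943021 on the plus strand (hg38, GENCODE v44). It measured 7.78, 13.0 and 16.3 normalized counts in the untreated libraries, 26.7, 32.9 and 15.2 in DAC, 159, 142 and 170 in ATRA, and 108, 136 and 150 in DAC + ATRA. All 6 ATRA-treated libraries were above all 6 others, and DAC replicate 3 fell within the untreated range while the other DAC replicates were above it. The log2 fold change was 3.62 ± 0.29 (SE, n = 3 per group) for ATRA, with a limma adjusted p of 7.77e-09, and 3.35 ± 0.29 for DAC + ATRA, with a limma adjusted p of 2.51e-08. For DAC it was 0.95 ± 0.29, with a limma adjusted p of 0.0319. Without DAC replicate 3 the DAC change was 1.25, with a limma adjusted p of 0.00206. Adding ATRA to DAC raised CIITA by 2.40 ± 0.29 (limma adjusted p of 3.05e-06). The change from ATRA to DAC + ATRA was -0.27, with a 95% interval of -0.87 to 0.34. The interaction, the amount by which the combination departed from the sum of both log2 changes, was -1.21 ± 0.41, with a limma adjusted p of 0.128.

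Most CIITA reads (91.9%) stood on 1 of its 4 transcript rows. Of the 16061 exonic bases of that row, 11411 are in no other listed CIITA row. The span of the CIITA gene, introns included, shares 13578 bases with that of DEXI, a gene on the opposite strand. The row ends at position 10936394, before the end of the CIITA gene at 10943021, but its span, introns included, still reaches into that of DEXI. Its exonic overlap with DEXI was not computed. The library kit keeps the strand, but the strand setting of the counting is not given in the sources used here, so reads of the 2 genes cannot be told apart with certainty. DEXI measured 69.2 to 84.7 in untreated, 64.9 to 76.8 in DAC, 110 to 156 in ATRA and 98.0 to 136 in DAC + ATRA libraries. Its log2 change with ATRA was 0.77 ± 0.19 (limma adjusted p of 0.00345), against 3.62 for CIITA, and the DEXI call was lost without untreated replicate 1, untreated replicate 2 or ATRA replicate 3 (adjusted p up to 0.0288). Its part in the CIITA values was not tested.

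RFX5, the DNA-binding subunit of the X box complex, lies at chr1:151340640-151347326 on the minus strand. Its values were 259, 231 and 194 in untreated, 309, 289 and 397 in DAC, 501, 468 and 435 in ATRA, and 690, 588 and 574 in DAC + ATRA libraries. The 4 groups did not overlap, and their means stood in the order untreated, DAC, ATRA, DAC + ATRA. The share of all tested genes whose groups separate in this way was not computed. RFX5 rose by 1.04 ± 0.14 log2 units with ATRA (limma adjusted p of 1.05e-05) and by 1.44 ± 0.14 with DAC + ATRA (limma adjusted p of 1.91e-07). The step from DAC to DAC + ATRA was 0.90 ± 0.14 and also passed (limma adjusted p of 8.27e-05). The DAC change of 0.54 ± 0.14 had a limma adjusted p of 0.0157, and DESeq2 on the recovered reads gave it an adjusted p of 0.00488. The step from ATRA to DAC + ATRA was 0.40 ± 0.14, with a limma adjusted p of 0.0582. Neither this step nor that from untreated to DAC passed the threshold with limma.

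CD74, the invariant chain, lies at chr5:150401637-150412969 on the minus strand. It stood at 81.7, 94.2 and 72.1 in untreated, 118, 143 and 77.3 in DAC, 452, 346 and 360 in ATRA, and 399, 469 and 487 in DAC + ATRA libraries. The ATRA-treated libraries lay far above the rest, and ATRA and DAC + ATRA overlapped each other. The log2 change was 2.21 ± 0.19 with ATRA (limma adjusted p of 2.59e-08) and 2.44 ± 0.19 with DAC + ATRA (limma adjusted p of 7.41e-09). From DAC to DAC + ATRA it was 2.03 ± 0.19 (limma adjusted p of 1.23e-07), and from ATRA to DAC + ATRA 0.23, with a 95% interval of -0.17 to 0.64. With DAC alone it was 0.41 ± 0.19, with a limma adjusted p of 0.172. Without DAC replicate 3, the lowest DAC library, the DAC change was 0.65, with a limma adjusted p of 0.00615.

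**Figure D2:**
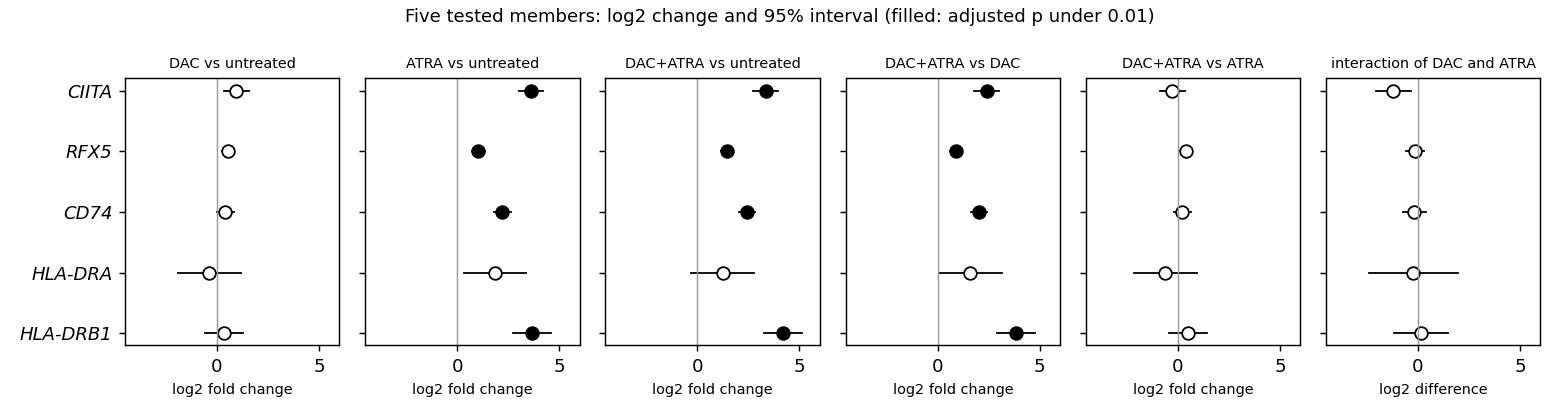
Log2 changes with 95% intervals of the 5 members that passed the filter, in the 5 comparisons of groups and the interaction; filled points passed an adjusted p under 0.01. CIITA, RFX5, CD74 and HLA-DRB1 are filled in the 3 comparisons that add ATRA to untreated or DAC cells or set the combination against untreated, and no point is filled for DAC, for DAC + ATRA against ATRA or for the interaction.

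CD74 had reads on 2 of its transcript rows. The longer row contains an exon of 192 bases that the other lacks, and codes for the longer form of the invariant chain, whose extra thyroglobulin-type domain can inhibit cysteine cathepsins. The longer row held 63.8%, 61.2% and 61.7% of the reads of both rows in the untreated libraries and 65.6%, 52.8% and 59.2% in DAC. In the ATRA libraries it held 82.0%, 83.4% and 84.0%, and in DAC + ATRA 82.8%, 78.9% and 82.2%. The ATRA-treated libraries did not overlap the others, on 71 to 116 reads per library without ATRA and 285 to 505 with it. Exact Clopper-Pearson 95% intervals reached from 42.0% to 75.1% over the libraries without ATRA and from 74.7% to 87.3% over those with it. They cover counting error only. Of its 1653 exonic bases, 0 lie in no other listed CD74 row, and how reads shared by rows were assigned is not given in the sources used here.

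**Figure D3:**
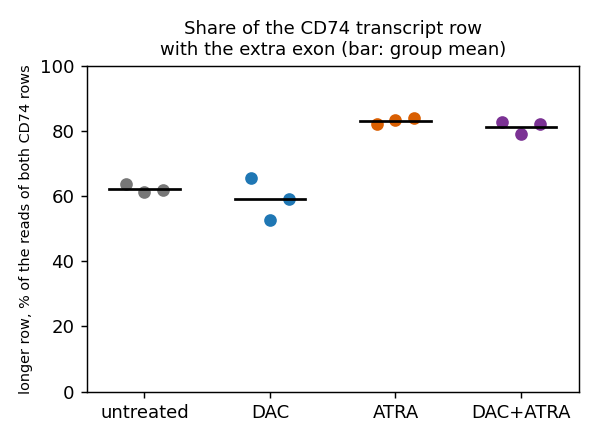
Share of the reads of both CD74 transcript rows that stood on the longer row, in percent on a linear axis from 0, with 1 point per library and a bar at the group mean. The 6 libraries without ATRA lie between 52.8% and 65.6% and the 6 with ATRA between 78.9% and 84.0%.

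The classical chains came next. HLA-DRB1, at chr6:32577902-32589848 on the minus strand, measured 4.67, 2.44 and 1.25 in untreated, 3.82, 1.57 and 6.53 in DAC, 35.8, 39.4 and 59.4 in ATRA, and 76.99, 66.4 and 49.0 in DAC + ATRA libraries. The lowest library with ATRA, at 35.8, stood above the highest without it, at 6.53. The log2 change was 3.67 ± 0.44 with ATRA (limma adjusted p of 1.92e-06) and 4.18 ± 0.44 with DAC + ATRA (limma adjusted p of 3.81e-07). It was 3.82 ± 0.44 from DAC to DAC + ATRA (limma adjusted p of 1.77e-06), 0.36 ± 0.44 with DAC (limma adjusted p of 0.646), and 0.52 from ATRA to DAC + ATRA, with a 95% interval of -0.41 to 1.44.

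HLA-DRA, the DR alpha chain at chr6:32439878-32445046 on the plus strand, pairs with every DR beta chain. Its values scattered: 3.89, 8.12 and 1.88 in untreated, 2.54, 1.57 and 5.44 in DAC, 22.4, 6.70 and 32.6 in ATRA, and 2.80, 38.3 and 10.2 in DAC + ATRA libraries. ATRA replicate 2 and DAC + ATRA replicate 1 lay within the range of the libraries without ATRA. The log2 change with ATRA was 1.85 ± 0.73, with a limma adjusted p of 0.0558, and with DAC + ATRA 1.23 ± 0.73, with a limma adjusted p of 0.196, so no call was made for HLA-DRA in any of the 6 comparisons. All HLA-DRA reads stood on 2 of its 14 rows, and both are absent from the primary GENCODE v44 annotation.

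HLA-DPB1, the DP beta chain, did not pass the filter. It had 1, 0 and 0 reads in untreated, 0, 1 and 0 in DAC, 5, 7 and 9 in ATRA, and 8, 14 and 7 in DAC + ATRA libraries. In normalized counts this was 0.78 at most in untreated and 4.48 to 7.52 in ATRA, and 7.15 to 15.8 in DAC + ATRA. Every ATRA-treated library was above every other one. The ratio of the summed reads to untreated, after the size factors, was 23.6 with ATRA (exact 95% interval 3.80 to 977) and 46.2 with DAC + ATRA (7.66 to 1886), and these intervals cover counting error only. All of its reads stood on 1 row, which is absent from the primary annotation. When genes of low count were kept in the fit, HLA-DPB1 had a log2 change of 2.45 with ATRA (limma adjusted p of 0.00122) and 3.29 with DAC + ATRA (limma adjusted p of 7.59e-05).

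HLA-DQA1, the DQ alpha chain, had 0 reads in all 3 untreated libraries and 2 in the DAC libraries, all of them in replicate 3. Its normalized counts were 6.27, 4.46 and 4.18 in ATRA and 0, 2.25 and 10.2 in DAC + ATRA. Against a floor of 3 reads per untreated library, the ATRA mean was at least 2.24-fold higher and the DAC + ATRA mean at least 1.87-fold higher, the latter with 1 library at 0. With low genes kept, the log2 change with ATRA was 2.56 (limma adjusted p of 0.00918) and with DAC + ATRA 1.73 (limma adjusted p of 0.0681).

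The remaining members were at or near 0 at this depth. HLA-DPA1, the DP alpha chain, had 1 read in DAC + ATRA replicate 1 only, and HLA-DMB had 2 reads in DAC + ATRA replicate 2 only. HLA-DMA was listed at 0 in all 12 libraries, where 3 reads would have corresponded to 1.88 to 4.70 normalized counts. HLA-DMA has 24 rows in the table, of which 21 are absent from the primary annotation. Over the 7 HLA members, 91 of 103 rows were absent from it, and of the 10 rows with reads 5 were. Near-identical class II sequences and repeated rows make the levels of all HLA members uncertain, and the part that this plays in the zeros was not tested.

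The other class II chains were read from a list of 8. HLA-DRB5, a second DR beta chain, had 1.56, 0.81 and 3.76 normalized counts in untreated, 7.63, 3.14 and 4.35 in DAC, 43.0, 38.0 and 29.3 in ATRA, and 75.6, 47.3 and 47.0 in DAC + ATRA libraries. It rose by 3.73 ± 0.43 log2 units with ATRA (limma adjusted p of 9.53e-07) and by 4.32 ± 0.43 with DAC + ATRA (limma adjusted p of 1.49e-07). HLA-DRB3 was not matched to the primary annotation and was tested only when all symbols were kept. It measured 20.2, 11.4 and 13.2 in untreated, 20.4, 17.2 and 7.62 in DAC, 113, 75.9 and 74.4 in ATRA, and 147, 170 and 133 in DAC + ATRA libraries. In that fit its log2 change was 2.49 with ATRA (limma adjusted p of 5.15e-06) and 3.28 with DAC + ATRA (limma adjusted p of 1.63e-07). The DR beta genes are close copies, so the split of reads between HLA-DRB1, HLA-DRB3 and HLA-DRB5 is uncertain.

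HLA-DQB1, the DQ beta chain, was at 0.81 to 3.11 in untreated, 2.54 to 6.27 in DAC, 4.46 to 10.8 in ATRA and 8.17 to 14.6 in DAC + ATRA libraries. It passed with DAC + ATRA (log2 change 2.33 ± 0.54, limma adjusted p of 0.00194) and had 1.80 ± 0.54 with ATRA (limma adjusted p of 0.0134). The former call was lost without untreated replicate 2 or DAC + ATRA replicate 2 (adjusted p up to 0.0121). Like HLA-DRB5, it passed the filter only through ATRA-treated libraries. Of the other listed chains, HLA-DRB4, HLA-DQA2, HLA-DQB2 and HLA-DOA were listed at 0 in all libraries, and HLA-DOB, the beta chain of the HLA-DM inhibitor HLA-DO, had 0.90 in a single ATRA library.

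**Figure D4:**
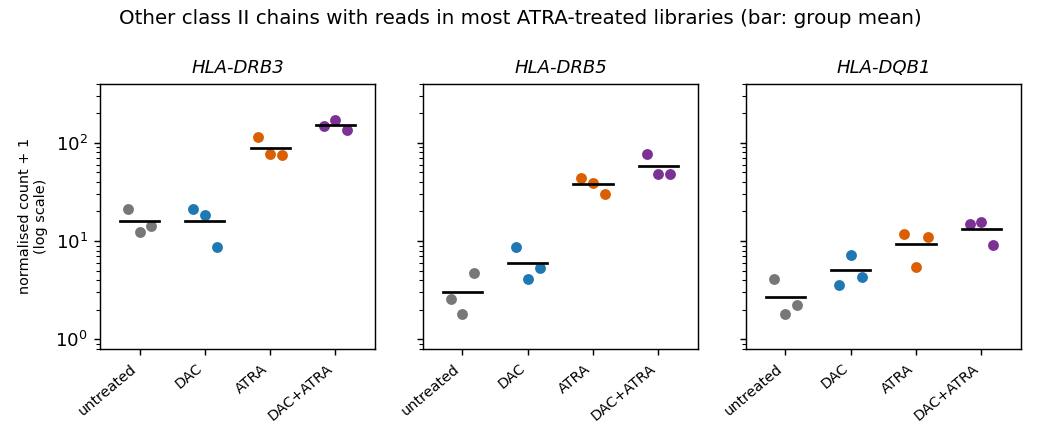
Normalized counts plus 1 (log axis) of HLA-DRB3, HLA-DRB5 and HLA-DQB1 in each of the 12 libraries, with 1 point per library and a bar at the group mean. For HLA-DRB3 and HLA-DRB5 all 6 ATRA-treated libraries lie above all others, while for HLA-DQB1 the lowest ATRA library, at 4.46, lies below the highest DAC library, at 6.27.

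For the proteins that bind the class II promoters beside RFX5, the counts were near those of all genes. Of the 6 listed, all were tested and 1 was higher and 1 lower with ATRA, beside 12.1% of all tested genes higher and 14% lower, and none passed with DAC or with DAC + ATRA against untreated. CREB1 rose by 0.88 ± 0.24 log2 units with ATRA (limma adjusted p of 0.00748), from 35.8 to 51.1 in untreated to 72.2 to 89.6 counts. RFXAP, a partner in the X box complex, fell by 0.76 log2 units with ATRA (limma adjusted p of 0.00919), from 85.5 to 119 in untreated to 43.5 to 66.3 counts. RFXANK, the remaining partner, had 12.5 to 24.9 in untreated and 8.19 to 18.4 in ATRA libraries (log2 change -0.51, limma adjusted p of 0.355). NFYB was lower in DAC + ATRA than in DAC by 0.78 ± 0.21 (log2 change -0.78, limma adjusted p of 0.0088). These calls lay close to the threshold and were lost in 11 (CREB1), 15 (RFXAP) and 19 (NFYB) of 27 alternatives. The list's median log2 change with ATRA was -0.16.

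Several endosomal processing genes rose. Of 9 listed, 7 were tested, and 5 were higher with ATRA (12.1% of all tested genes), 6 with DAC + ATRA (14.5% of all) and 0 with DAC (4.29% of all), with no gene lower. The list's median log2 change was 0.96 with ATRA and 1.42 with DAC + ATRA. CTSS, cathepsin S, which trims CD74 to its last fragment, rose from 1986 to 2458 in untreated to 4279 to 4531 in ATRA libraries, by 0.96 ± 0.11 log2 units (limma adjusted p of 7.63e-07). CTSB, cathepsin B, went from 449 to 467 in untreated to 1449.6 to 1874 in ATRA and 1152 to 1353 in DAC + ATRA libraries. Its log2 change was 1.89 ± 0.12 with ATRA (limma adjusted p of 3.61e-10) and 1.42 ± 0.12 with DAC + ATRA (limma adjusted p of 2.37e-08). CTSD, cathepsin D, was at 21.0, 31.7 and 37.6 in untreated, 154, 141 and 23.9 in DAC, 197, 593 and 585 in ATRA, and 812, 755 and 982 in DAC + ATRA libraries. DAC replicate 3 stood with the untreated libraries here, as for CIITA and CD74. The same library was the highest DAC one for RFX5, at 397, and for LYZ, at 184635. CTSD rose by 3.76 ± 0.50 log2 units with ATRA (limma adjusted p of 6.51e-06) and 4.80 ± 0.50 with DAC + ATRA (limma adjusted p of 3.11e-07).

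CTSL, cathepsin L, is named after its values were seen, because it moved apart from the rest. It measured 42.7 to 51.3 in untreated, 38.1 to 54.7 in DAC, 36.5 to 47.7 in ATRA, and 154 to 172 in DAC + ATRA libraries. The DAC + ATRA libraries lay above all others. The log2 change from ATRA to DAC + ATRA was 1.97 ± 0.21 (limma adjusted p of 1.46e-06). LGMN and IFI30, an asparaginyl endopeptidase and a thiol reductase of the same compartment, were at 0 to 1.27 and at 0 counts. How reads shared by transcript rows were assigned is not given, and what sets these low values was not tested. SPPL2A, the protease that removes the last CD74 membrane fragment, and MARCHF1, a ubiquitin ligase that turns over surface class II, were the other genes called with ATRA.

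**Figure D5:**
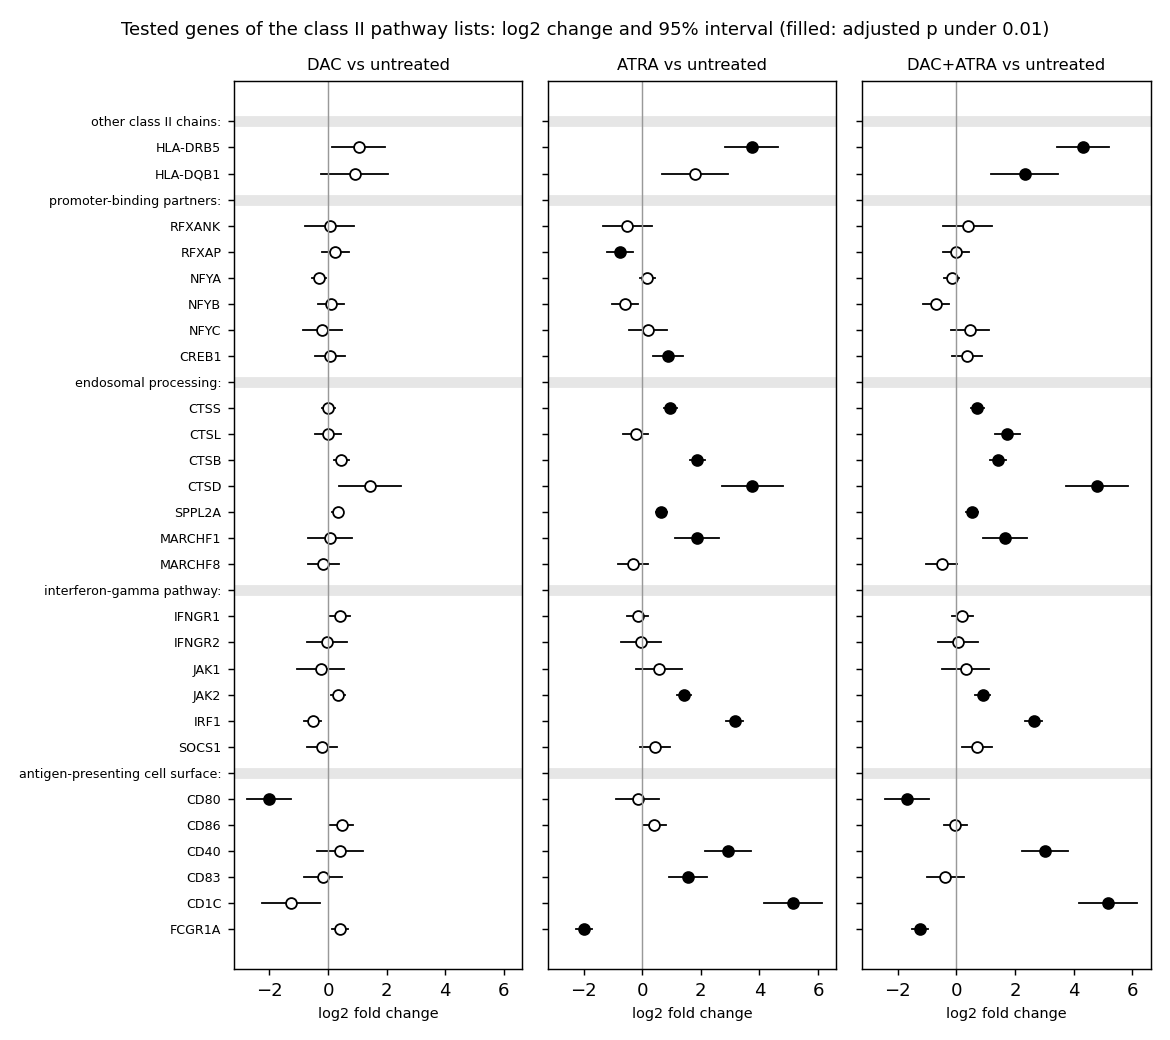
Log2 changes with 95% intervals of 27 of the 28 tested genes from the 5 pathway lists, against untreated, for DAC, ATRA and DAC + ATRA; filled points passed an adjusted p under 0.01. With ATRA 12 genes are filled above 0 and 2 below, with DAC + ATRA 12 above and 2 below, and with DAC only CD80 is filled, below 0.

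Interferon-gamma is the classical inducer of CIITA, through JAK kinases and IRF1. Of the 7 genes of that list, all tested, 2 were higher with ATRA and with DAC + ATRA, and 0 with DAC, beside 12.1%, 14.5% and 4.29% of all tested genes. IRF1, a transcription factor that binds the interferon-responsive CIITA promoter, went from 114 to 139 in untreated to 970.3 to 1257 in ATRA and 773 to 809 in DAC + ATRA libraries. Its log2 change was 3.16 ± 0.14 with ATRA (limma adjusted p of 1.12e-12), 2.65 ± 0.14 with DAC + ATRA (limma adjusted p of 1.91e-11) and -0.52 ± 0.14 with DAC (limma adjusted p of 0.0151). JAK2 rose by 1.42 ± 0.12 with ATRA (limma adjusted p of 1.17e-08) and by 0.90 ± 0.12 with DAC + ATRA (limma adjusted p of 5.97e-06). From ATRA to DAC + ATRA it dropped (log2 change -0.53, limma adjusted p of 0.00321), a call lost in 4 of 27 alternatives, namely without ATRA replicate 1 or any 1 DAC + ATRA library (adjusted p up to 0.0182). The receptor chains IFNGR1 and IFNGR2 had log2 changes of -0.15 and -0.03 with ATRA. SOCS1, a feedback inhibitor of JAK kinases, was higher in DAC + ATRA than in DAC by 0.92 ± 0.24 (limma adjusted p of 0.00735), a call lost in 9 of 27 alternatives.

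The antigen-presenting cell surface list had 6 genes, all tested, and split in direction. With ATRA 3 were higher and 1 lower, with DAC + ATRA 2 higher and 2 lower, and with DAC 0 higher and 1 lower, beside 12.1% and 14%, 14.5% and 14.4%, and 4.29% and 3.67% of all tested genes. CD1C, which presents lipids and marks a dendritic cell subset, had 2.33, 4.87 and 0.63 counts in untreated, 1.27, 0 and 0 in DAC, 173, 111 and 73.6 in ATRA, and 137, 106 and 103 in DAC + ATRA libraries. It rose by 5.16 ± 0.47 log2 units with ATRA (limma adjusted p of 5.16e-08) and 5.19 ± 0.47 with DAC + ATRA (limma adjusted p of 5.23e-08). Of the other dendritic cell markers, FCER1A and CLEC9A were at 0 in the ATRA libraries, against 0 to 1.25 and 1.62 to 2.33 in untreated, and BATF3 was lower with ATRA (log2 change -1.71, limma adjusted p of 0.00794). The 5 dendritic markers summed to 13898 to 14270 in untreated and 7561 to 8877 in ATRA libraries, nearly all of it from FLT3. CD40, a costimulatory receptor, went from 2.51 to 8.12 in untreated to 42.6 to 45.7 in ATRA and 38.3 to 54.6 in DAC + ATRA libraries, by 2.93 ± 0.37 with ATRA (limma adjusted p of 3.98e-06). CD1C and CD40 passed the filter only through ATRA-treated libraries. FCGR1A, the high-affinity IgG receptor, went the other way, from 1431 to 1772 in untreated to 369 to 481 in ATRA libraries, a log2 change of -1.99 ± 0.13 (limma adjusted p of 4.1e-10). It was -1.23 ± 0.13 with DAC + ATRA (limma adjusted p of 4.17e-07).

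The ligands CD80 and CD86 and the activation marker CD83 were named after their values were seen. CD80 and CD86 were not called higher in any comparison, and CD83 was called higher only with ATRA against untreated. CD80 was lower with DAC (log2 change -2.02 ± 0.36, limma adjusted p of 0.000589) and with DAC + ATRA (-1.68 ± 0.36, limma adjusted p of 0.000869), but not at the threshold with ATRA (-0.16 ± 0.36, limma adjusted p of 0.765). A fit of the untreated and DAC libraries by themselves gave the DAC change a limma adjusted p of 0.0191. CD83 was higher with ATRA (1.57 ± 0.31, limma adjusted p of 0.000459) and stood at 25.2 to 30.6 in DAC + ATRA against 31.9 to 44.7 in untreated libraries. From ATRA to DAC + ATRA its log2 change was -1.94 ± 0.31 (limma adjusted p of 0.000153). CD86 was called in none of the 6 comparisons.

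Among the genes whose pattern over the 12 libraries was most like that of CIITA, by Pearson r of log2(normalized count + 1), were RPIA (0.991), FAM53B (0.986), SGSH (0.985) and CHST15 (0.985). For RFX5, the member with the highest mean count, they were DNAJC10 (0.977), GAPT (0.976), SOAT1 (0.974), SLA (0.970) and CTSZ (0.969). Among the members, CD74 ranked 30 for likeness to CIITA (0.971), HLA-DRB1 501 (0.886), RFX5 798 (0.833) and HLA-DRA 1977 (0.619). The libraries fall into 4 groups, so these values describe mostly how the group means line up. HLA-DRB1 ranked 56 for likeness to RFX5 (0.930), above CD74, which ranked 252 (0.877).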

How the data were processed

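The authors depleted total RNA of ribosomal RNA, made strand-specific libraries, checked reads with FastQC, aligned them with STAR to hg38, counted them with HTSeq and normalized with DESeq2, according to the submitters' processing notes and the study's methods; versions and the strand setting of counting are not given in the sources used here. The deposited table holds 100502 transcript rows of normalized counts, a signal in which the authors divided reads by a size factor. All values were whole multiples of 1 read (tolerance 0.001 reads), so reads were recovered. Rows were summed per symbol. GENCODE v44 matched 88.9% of rows.

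Genes were tested with limma 3.58.1 (R 4.3.3) on log2(normalized count + 1), with a trend, all 12 libraries and 4 group coefficients, and checked on simulated data. DESeq2 1.42.0 and edgeR 4.0.16 on recovered reads, other scalings, pseudocounts of 0.1 and 5, filters, row choices and leaving out each library were alternatives. The members and lists were chosen with earlier results of these data known. Named were all members, every other class II chain and the 3 genes with the lowest adjusted p in each other list, transcript rows with at least 10% of a member's value, and the 5 genes most like CIITA and most like the member with the highest mean. Differences in count between genes are not corrected for length. No column of another series was present. Some of the listed or named genes are not reported here.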

Additional observations from a re-analysis of the deposited data

Results flagged for a closer look

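In 3 of the 28 tested genes of the pathway lists the effect of ATRA differed between cells with and without DAC by the interaction term, at a limma adjusted p under 0.01. Of all tested genes, 0.724% had a higher and 0.874% a lower interaction at that threshold. CTSL was named after its values were seen. For CTSL the interaction was 1.98 ± 0.29 log2 units (limma adjusted p of 0.000451): ATRA changed it by -0.22 without DAC and by 1.75 with DAC. For CTSB it was -0.92 ± 0.17 (limma adjusted p of 0.00392), with changes of 1.89 without DAC and 0.97 with DAC. For JAK2 it was -0.87 ± 0.17 (limma adjusted p of 0.00448), with changes of 1.42 without DAC and 0.56 with DAC. The interactions of CTSB and JAK2 were lost in 7 and 11 of 26 alternatives, and that of CTSL in 0 of 26. No member was among them.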

How the results depend on the processing

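The calls of CIITA, RFX5, CD74 and HLA-DRB1 with ATRA, with DAC + ATRA and in DAC + ATRA against DAC were made in all 27 alternatives, with log2 changes with ATRA of 3.25 to 3.83, 0.93 to 1.14, 2.09 to 2.62 and 2.67 to 4.11. Except in the fit without a filter, HLA-DRB1 was tested only through ATRA-treated libraries. Its calls in those alternatives are therefore no test of a rise with ATRA. The count of members called with DAC was 0, and became 1 with DESeq2 and 2 at a threshold of 0.05, and ranged from 0 to 2 when each library was left out (2 without DAC replicate 3). Over all 10642 tested genes, 848 were called with DAC in the main fit and 1205 with DESeq2. This count ranged from 509 to 1385 when each library was left out, with 1385 without DAC replicate 3. The count over all genes at a threshold of 0.05 was not computed. Some uncalled changes turned sign. Leaving out 1 library at a time, the DAC change ranged from -0.0042 (without DAC replicate 3) to 0.77 for HLA-DRB1 and from -0.78 to 0.0498 (without untreated replicate 2) for HLA-DRA, whose change from ATRA to DAC + ATRA ranged from -1.48 to 0.20 (without DAC + ATRA replicate 1). The interaction ranged in the same way from -0.42 to 0.0139 (without DAC replicate 2) for CD74, from -1.10 to 0.58 for HLA-DRA and from -0.26 to 0.52 for HLA-DRB1. With DESeq2, edgeR on DESeq2 factors and edgeR on TMM factors it was 0.21, 0.17 and 0.14 for HLA-DRA and -0.14, -0.12 and -0.16 for HLA-DRB1. The cause was not tested. Over the tested members and the calls of the other named genes but those of the marker lists and HLA-DRB3, 2069 values kept direction and side of the threshold, 95 lost a call, 5 gained one and 16 changed sign (CD80, CD83, CD86, SPPL2A, MARCHF1, CTSL and DEXI were added after their values had been seen); the calls of NFYB, RFXAP, CREB1 and SOCS1 were lost in 19, 15, 11 and 9 alternatives. HLA-DQB1 with DAC + ATRA lost its call without untreated replicate 2 or DAC + ATRA replicate 2. The replicate block left the count of members called at 4 with ATRA, with DAC + ATRA and in DAC + ATRA against DAC, and at 0 in the other comparisons, and same-numbered libraries did not deviate together (correlations -0.263 to 0.114). At this depth, 3 reads correspond to 1.88 to 4.70 normalized counts, and what sets the values of HLA-DPA1, HLA-DMA and HLA-DMB was not tested.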
